A study of Rattus norvegicus with 6 samples.

Results

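Messenger RNA for channels that carry water, calcium and chloride was followed in the choroid plexus of the lateral ventricles of Sprague-Dawley rats at E19 (embryonic day 19), at P2 (postnatal day 2) and in the adult. The genes were taken by symbol: the water channel Aqp1, the calcium-permeable channel Trpv4, and Clic6, Clcn2, Clcn3 and Clic1, which belong to chloride channel families. A gene was measured by a probe set (the group of short oligonucleotides that stands for a transcript on the array) annotated to that gene alone. Such probe sets existed for 5 of the 6 genes, and all 5 passed the filter on low values, out of 14217 genes on the array and 10334 that passed. Clic6 had none and was not analysed here.

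At each of the 3 stages 2 pools of plexuses were hybridized, each to 1 Affymetrix rat genome array, which gives 6 arrays in all. Per the labels, total RNA came from batches of 6 to 10 lateral ventricle plexuses. The study's methods describe each pool as tissue of several animals, with fewer animals per pool in the adult than at the younger stages. Pool size thus went with stage, and the effects of both cannot be told apart in comparisons with the adult. The methods list adult males among the animals obtained and give no sex for the young. The labels name no treatment and no engineered allele, and they give no age beyond the word adult for the oldest stage. The adult stage served as the reference, and the question was how the expression of these channels before and just after birth compared with that of the mature tissue.

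The choroid plexus is a sheet of epithelium around fenestrated vessels that secretes cerebrospinal fluid. Its cells move sodium, chloride and bicarbonate toward the ventricle, and water follows, in part through aquaporin-1 in the apical membrane. Anion channels and exchangers of the plasma membrane and of endosomes set cell volume, membrane voltage and vesicle acidity, while TRPV4 opens upon swelling, warmth and lipid mediators and lets calcium enter.

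Values are signal intensities in units of the array software, and 100 units was taken as the background level. Epithelial markers were abundant, and the summed intensity of the 9 measured ones was 67279 to 69307 units at E19, 71792 to 74975 at P2 and 99765 to 104075 in the adult. Of the 8 tested, 1 was called higher, 4 lower and 3 not at E19, and 0 higher, 4 lower and 4 not at P2. The sum moved mainly with Prlr, Enpp2 and Cldn2, and Prlr had 635 and 816 units at E19, 940 and 1091 units at P2, and 15269 and 16148 in the adult. Ttr was not called (-0.01 at E19 on the log2 scale) and Otx2 was higher at E19 by 0.28. Kcnj13 alone stayed under 100 units on every array. Markers of other cells were also present. The 9 endothelial markers summed to 10533 to 11174 units at E19 and 9678 to 10032 at P2, against 1934 to 1962 in the adult, and all 9 were called higher at both young stages. The 6 fibroblast markers summed to 19014 to 19229, 19626 to 22627 and 7025 to 7587 units at E19, P2 and adult. At both young stages 5 of them were called higher and Pdgfra lower (-0.83 at E19 and -0.64 at P2). Astrocyte and oligodendrocyte markers were highest in adult pool 1, at 2337 units, while adult pool 2 had 835 units and the other arrays had 90.8 to 211, with Slc1a2 under 100 units throughout. In such whole tissue, fewer cells of a type and less RNA per cell cannot be told apart.

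Where these genes start is shown first. Sequences are printed for Aqp1 (small stage differences by its brighter probe set, larger by the other), Trpv4 (lower before adulthood) and Clcn2 (close to background). Whether sequence and stage profile are related was not tested. RefSeq gave a window from 250 bases before to 50 bases after a transcription start for 4 of the 6 genes in build GRCr8 (Clcn3 has 2 such windows). They are printed on the plus strand, 5′ to 3′, with Aqp1 at chr4:85812534-85812833, Trpv4 at chr12:47598938-47599237 and Clcn2 at chr11:93702344-93702643, and capitals mark the GC box GGGCGG on either strand (CCGCCC when it lies on the other strand) and the TATA box TATAAA:
Aqp1: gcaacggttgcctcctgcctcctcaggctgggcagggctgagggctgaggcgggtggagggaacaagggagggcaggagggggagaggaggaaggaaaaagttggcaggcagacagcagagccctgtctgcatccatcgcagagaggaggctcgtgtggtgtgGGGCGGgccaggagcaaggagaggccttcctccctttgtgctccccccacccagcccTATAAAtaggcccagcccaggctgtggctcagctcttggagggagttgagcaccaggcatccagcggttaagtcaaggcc
Trpv4: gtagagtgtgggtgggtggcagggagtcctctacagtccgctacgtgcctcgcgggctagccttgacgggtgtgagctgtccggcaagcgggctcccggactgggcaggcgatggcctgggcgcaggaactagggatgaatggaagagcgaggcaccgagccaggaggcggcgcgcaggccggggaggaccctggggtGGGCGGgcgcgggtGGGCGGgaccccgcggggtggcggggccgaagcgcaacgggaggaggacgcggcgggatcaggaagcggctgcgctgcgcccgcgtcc
Clcn2: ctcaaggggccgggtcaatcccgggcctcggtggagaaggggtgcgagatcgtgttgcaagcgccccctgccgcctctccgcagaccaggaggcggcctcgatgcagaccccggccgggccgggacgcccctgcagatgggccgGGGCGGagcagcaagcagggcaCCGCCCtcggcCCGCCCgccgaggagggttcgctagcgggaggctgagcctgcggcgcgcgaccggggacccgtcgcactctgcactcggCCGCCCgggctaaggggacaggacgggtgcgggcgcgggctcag

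The Aqp1 window held 1 GC box, whose first base lies at position -87 from the start, and 1 TATA box at position -30. The Trpv4 window held 2 GC boxes, at positions -52 and -38, and no TATA box. The Clcn2 window held 4 GC boxes, at positions -106, -84, -73 and 7, of which the first reads on the printed strand and the rest on the other. None of these matches overlapped another. The Clcn3 windows, at chr16:34137754-34138053 and chr16:34165294-34165593, held neither motif. GGGCGG occurred in 33.1% and TATAAA in 14.2% of the 33469 rat windows of the same length. The OTX-type motif TAATCC and the forkhead motif TGTTTAC, searched on both strands, occurred in 7.17% and 3.78% of all windows and in none of the 5 windows here. CpG pairs numbered 6 in Aqp1, 34 in Trpv4, 37 in Clcn2, and 33 and 9 in the Clcn3 windows, while the median over all windows was 7. A match of letters is a description and does not show that a factor binds.

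Of the 5 channel genes, Clcn3 (by its brightest probe set) and Clic1 were higher and Trpv4 lower at E19 than in the adult. The same 3 genes were called in the same direction at P2, a comparison that uses the same adult pools. The test was limma on log2 intensities of all 6 arrays, with Benjamini-Hochberg adjustment over the 17808 probe sets that passed the filter, and an adjusted p under 0.05 was called. Stage differences were common on these arrays. At E19 the 3 calls among 5 genes stand beside 54.6% of all tested probe sets called (30.4% higher, 24.2% lower), and at P2 beside 49.2% called (27.4% higher, 21.8% lower). Of the calls at P2, 55.6% were higher, and 44.6% after each array was centred on its median. The share of channel genes called is thus close to the background of each comparison. The median log2 difference of the 5 genes was 0.34 at E19 and 0.38 at P2, against 0.04 and 0.05 over all tested genes. That median was the value of the brightest Clcn3 probe set at each stage. The mean of the 4 Clcn3 probe sets was -0.0087 at E19 and 0.15 at P2, not called. Between P2 and E19, 0 of 5 channel genes were called by limma, against 7.13% of all probe sets (3.62% higher, 3.5% lower), and 1 gene, Trpv4, had an unadjusted p under 0.05. For all 5 genes, also Aqp1 and Clcn2 that were not called, the pools of either young stage lay on 1 side of both adult pools. The share of all tested genes with such separation was not counted, so nothing particular to the channels is read from it.

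**Figure D1:**
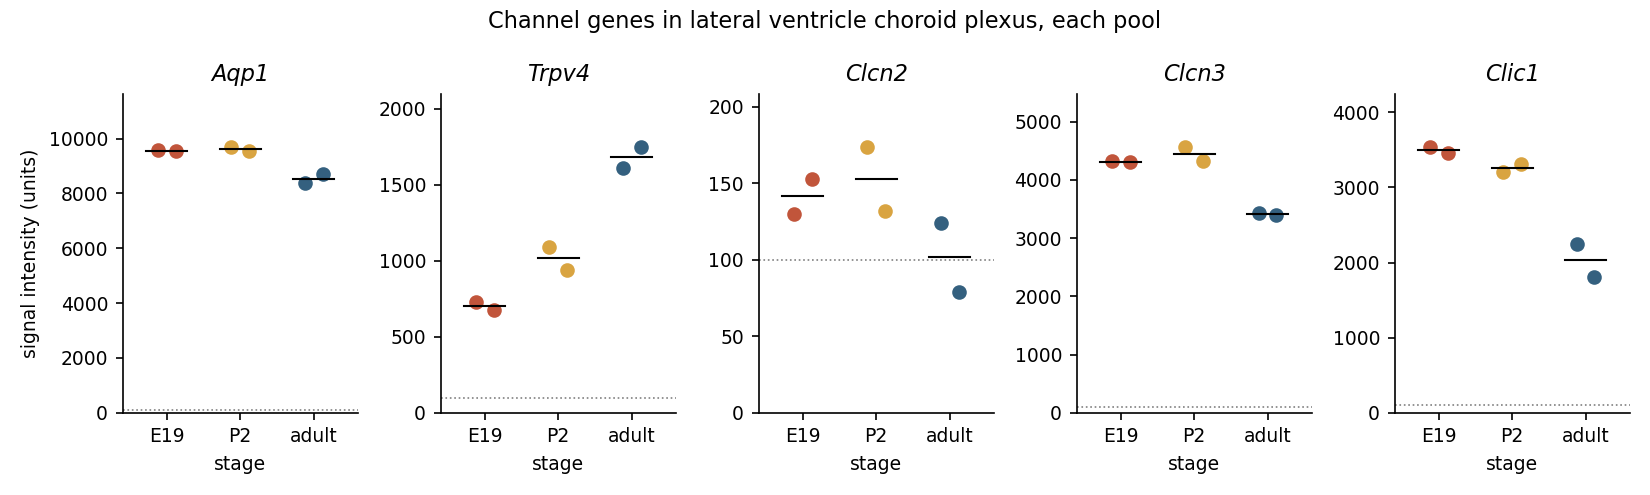
Signal intensity in units (vertical axis from 0, its own range for each gene) of Aqp1, Trpv4, Clcn2, Clcn3 and Clic1 at E19, P2 and adult, with a point for each pool, a bar for the mean of 2 pools and a dotted line at 100 units. Trpv4 lies between 679 and 731 units at E19 and between 1610 and 1751 units in the adult, Clcn2 lies near the dotted line, and the other 3 genes are lower in the adult.

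Aqp1 encodes aquaporin-1, the water channel of the apical membrane of the plexus epithelium. Its brighter probe set had 9582 and 9550 units at E19, 9706 and 9552 units at P2, and 8379 and 8706 in the adult. The young pools were thus tightly grouped and all above both adult pools, and E19 and P2 overlapped. The log2 difference from the adult was 0.16 at E19 (95% interval -0.04 to 0.37, adjusted p = 0.139) and 0.17 at P2 (-0.03 to 0.38, adjusted p = 0.129). Neither passed the test. The intervals allow at most 0.38 on the log2 scale, and P2 minus E19 was 0.01 (-0.19 to 0.21). The size depended on the scaling: quantile normalization gave 0.24 (adjusted p = 0.0499) and 0.27 (adjusted p = 0.0395), both called, and median centring 0.054 (adjusted p = 0.589) and 0.054 (adjusted p = 0.595).

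The second probe set of Aqp1 gave another answer on the same arrays. It had 4107 and 4117 units at E19, 4188 and 4491 units at P2, and 2184 and 2126 in the adult, with the young pools far above both adult pools. The log2 difference was 0.93 at E19 (0.72 to 1.15, 1.91-fold, adjusted p = 0.00087) and 1.01 at P2 (0.79 to 1.22, 2.01-fold, adjusted p = 0.000903). The log2 ratio of the second probe set to the brighter one in the 2 pools of a stage was -1.22 and -1.21 (E19), -1.21 and -1.09 (P2), and -1.94 and -2.03 (adult). Within an array the pair therefore changed unequally, and both adult arrays stood apart from the other 4. Both probe sets put E19 and P2 above the adult, and they differ in the size of the step and in whether it was called. Aquaporin-1 is also made by red cells and by vessels outside the brain. The 5 measured erythroid markers summed to 21604 to 22107 units at E19 and 18114 to 19375 at P2, against 14489 to 14879 in the adult, with Epb42 under 100 units on all arrays. Hbb made up most of these sums and was 1.32-fold higher at E19, whereas Alas2 was 4.41-fold, Ahsp 15.1-fold and Slc4a1 at least 4.56-fold higher. All 4 tested erythroid markers were called higher at E19 and 3 of 4 at P2. Their part in the Aqp1 signal, and that of the endothelial markers, was not tested.

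**Figure D2:**
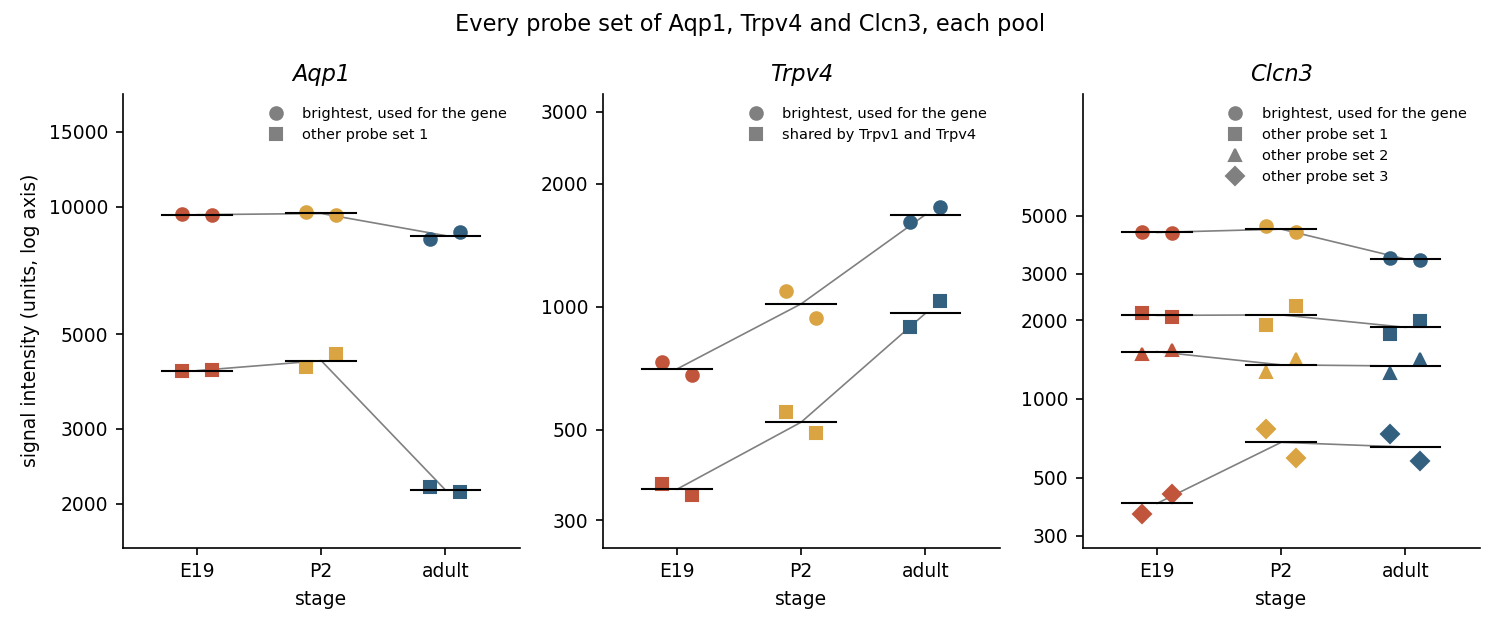
Signal intensity in units on a log axis for every probe set of Aqp1, Trpv4 and Clcn3 at E19, P2 and adult, with a point for each pool, a bar for the mean of 2 pools and grey lines joining the means. The second Aqp1 probe set drops to 2184 and 2126 units in the adult while the brighter one has 8379 and 8706 there, the Trpv4 probe sets run in parallel, and the 4 Clcn3 probe sets do not share a profile.

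Trpv4 encodes a calcium-permeable cation channel that opens upon cell swelling, warmth and arachidonic acid metabolites. It had 731 and 679 units at E19, 1093 and 941 units at P2, and 1610 and 1751 in the adult. The 3 stages did not overlap, and their order was E19, P2, adult, with the lowest pools at E19. The log2 difference from the adult was -1.25 at E19 (SE 0.11, -1.54 to -0.96, adjusted p = 0.000885) and -0.73 at P2 (SE 0.11, -1.02 to -0.44, adjusted p = 0.00584). In fold terms Trpv4 was 2.38-fold lower at E19 and, at P2, 1.66-fold lower. P2 exceeded E19 by 0.53 on the log2 scale (0.23 to 0.82), which gave an adjusted p of 0.0603 and did not pass, while 5 of the alternatives put it below 0.05 (0.0112 to 0.0496). Only 5.15% of tested genes were lower at E19 relative to the adult than Trpv4, and 9.87% at P2.

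A further probe set is annotated to both Trpv1 and Trpv4 and was read only as a check, chosen after the values had been seen. It had 368 and 347 units at E19, 554 and 490 units at P2, and 892 and 1034 in the adult, again without overlap between stages. Its log2 differences were -1.43 at E19 (adjusted p = 0.000683), -0.88 at P2 (adjusted p = 0.00371) and 0.54 for P2 minus E19 (adjusted p = 0.0608). Trpv1, the capsaicin receptor, had a probe set of its own that lay between 5.17 and 52 units and so stayed under background on all 6 arrays. Trpv4 and its shared probe set kept their calls against the adult under every alternative computed. Of the 8 tested epithelial markers, 4 were also lower than in the adult at each young stage, while Ttr, Folr1 and Htr2c were not called at E19 and Otx2 was higher there. Their part in the Trpv4 difference was not tested.

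Clcn2 encodes ClC-2, a plasma membrane chloride channel that opens with hyperpolarization and swelling. It had 130 and 153 units at E19, 174 and 132 units at P2, and 124 and 79.2 in the adult. All 4 young pools lay above both adult pools, yet the adult pools differed by 44% of their mean and 1 of them was under 100 units. The log2 difference was 0.51 at E19 (-0.15 to 1.18, adjusted p = 0.151) and 0.61 at P2 (-0.05 to 1.28, adjusted p = 0.106), and neither was called. With values under 100 units set to 100 they were 0.35 and 0.44, and under quantile normalization 0.20 and 0.31. Without adult pool 1 both were called, at 0.84 (adjusted p = 0.0391) and 0.94 (adjusted p = 0.0334), but these values are set against the single adult pool at 79.2 units, which is below background. Without adult pool 2 they were 0.19 (adjusted p = 0.514) and 0.29 (adjusted p = 0.346). P2 minus E19 was 0.10 (-0.56 to 0.76), and its sign turned to -0.018 without E19 pool 1 and to -0.10 without P2 pool 1. At this level a change of up to 1.28 on the log2 scale was within the interval.

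Clcn3 encodes ClC-3, which exchanges chloride for protons in endosomes and synaptic vesicles. Its brightest probe set had 4322 and 4310 units at E19, 4570 and 4318 units at P2, and 3436 and 3397 in the adult. The young pools lay above both adult pools by a small margin, and E19 and P2 overlapped. The log2 difference was 0.34 at E19 (0.13 to 0.55, 1.26-fold, adjusted p = 0.02) and 0.38 at P2 (0.17 to 0.59, 1.3-fold, adjusted p = 0.0159). Both calls depended on the number of pools. At E19 the call was lost without E19 pool 1 (0.34, adjusted p = 0.0968), E19 pool 2 (0.34, adjusted p = 0.0949), adult pool 1 (0.35, adjusted p = 0.0588) or adult pool 2 (0.33, adjusted p = 0.0689). It was also lost after median centring (0.23, adjusted p = 0.0631). At P2 it was lost without P2 pool 1 (0.34, adjusted p = 0.0623) or adult pool 2 (0.37, adjusted p = 0.0575).

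The other 3 probe sets of Clcn3 did not share this step. The second in brightness had 2119 and 2048 units at E19, 1918 and 2266 units at P2, and 1764 and 1987 in the adult, with log2 differences from the adult of 0.15 (adjusted p = 0.328) and 0.15 (adjusted p = 0.332). The third had 1487 and 1542 units at E19, 1272 and 1425 units at P2, and 1255 and 1415 in the adult, with 0.18 (adjusted p = 0.205) and 0.01 (adjusted p = 0.919). For both, the P2 and adult pools overlapped. The faintest had 365 and 434 units at E19, 771 and 595 units at P2, and 732 and 579 in the adult. Its E19 pools lay below the rest, with a log2 difference from the adult of -0.71 (-1.20 to -0.22, adjusted p = 0.028), opposite in sign to the brightest probe set, and of 0.06 at P2 (adjusted p = 0.818). That call was lost without E19 pool 1 (-0.58, adjusted p = 0.129), E19 pool 2 (-0.84, adjusted p = 0.0603) or adult pool 1 (-0.54, adjusted p = 0.103). The mean of all 4 probe sets was -0.0087 at E19 and 0.15 at P2 (adjusted p = 0.93 and 0.164), so a direction for the Clcn3 transcripts as a whole was not settled by these arrays.

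Clic1 encodes a soluble protein of the glutathione transferase fold that can insert into membranes as an anion channel. It had 3542 and 3463 units at E19, 3204 and 3317 units at P2, and 2253 and 1805 in the adult. All 4 young pools exceeded both adult pools, which differed from each other by 22.1% of their mean. The log2 difference was 0.80 at E19 (SE 0.13, 0.47 to 1.12, 1.74-fold, adjusted p = 0.00527) and 0.69 at P2 (SE 0.13, 0.37 to 1.02, 1.62-fold, adjusted p = 0.00969). P2 minus E19 was -0.10 (-0.43 to 0.22, adjusted p = 0.643), although the pools of these stages did not overlap. Both calls against the adult were kept under every alternative computed. Among tested genes, 18.1% were higher at E19 relative to the adult than Clic1, and 19.3% at P2. Clic1 is widely expressed, and the sums of endothelial, fibroblast and macrophage markers were higher at both young stages too. Of the 6 fibroblast markers, 5 were called higher and Pdgfra lower at both. The 9 macrophage markers summed to 2585 to 2610 units at E19 and 2743 to 3532 at P2, against 1463 to 1469 in the adult, with Cx3cr1 under 100 units on all arrays and 3 of 8 tested markers called higher at E19 and 6 at P2. The macrophage sum at E19 moved mainly with Mrc1 (794 and 698 units, against 39.7 and 25.7 in the adult). C1qb and C1qc were also called higher at E19, while Cd68, Csf1r, C1qa, Aif1 and Ptprc were not called there. The part of these markers in the Clic1 difference was not tested.

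**Figure D3:**
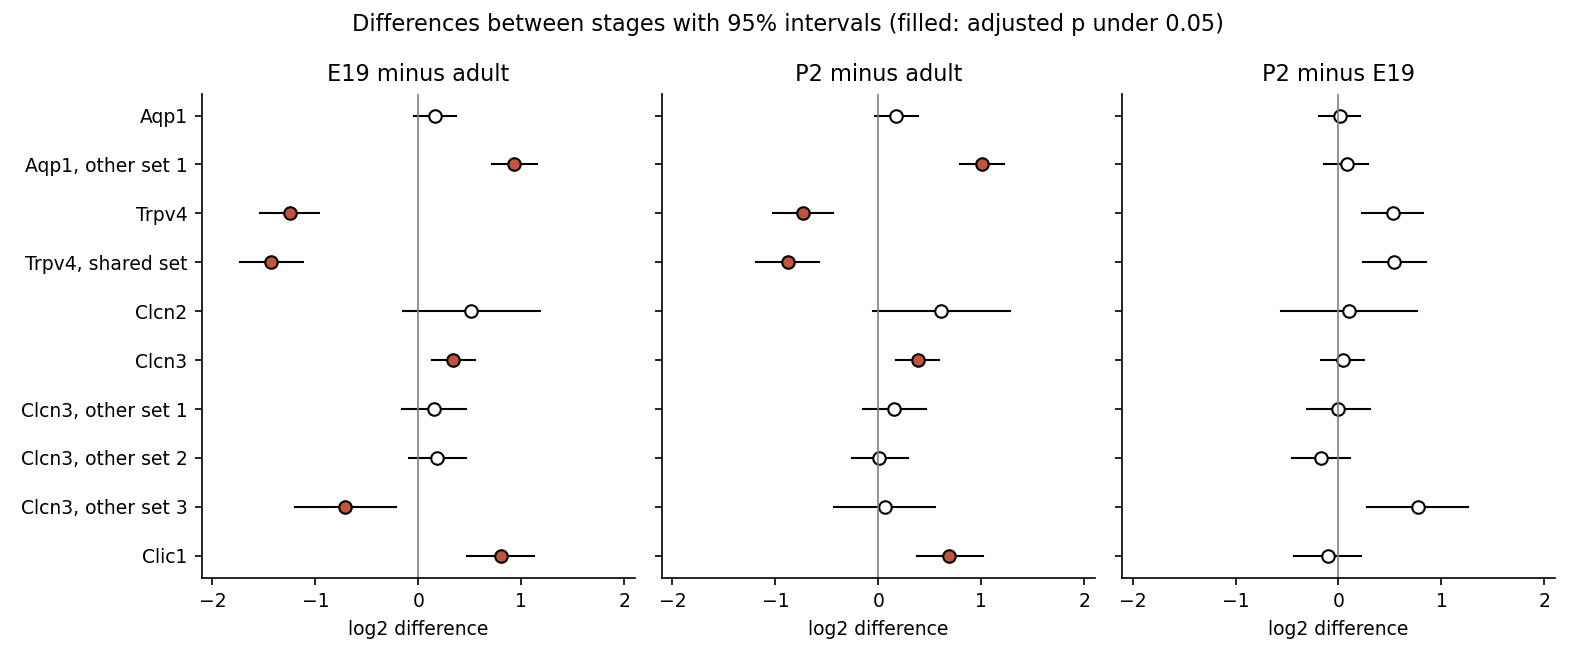
Log2 differences of intensity (points) with 95% intervals (lines) for every probe set of the channel genes, for E19 minus adult, P2 minus adult and P2 minus E19, where filled points had an adjusted p under 0.05. Trpv4 lies left of 0 in both comparisons with the adult, Clic1 and the second Aqp1 probe set lie right of it, the Clcn3 probe sets scatter from -0.71 to 0.34 at E19, and no point is filled for P2 minus E19.

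The relatives and partners of these genes were read from lists of channel families, 103 genes in all, of which 84 could be measured singly and 48 were tested. Against the adult, 13 were called higher, 17 lower and 18 not at E19, and 13 higher, 15 lower and 20 not at P2. Over all tested genes 56.6% were called at E19 and 50.7% at P2, so that these counts are near the share of the array as a whole. The median log2 difference over the 48 genes was -0.07 at E19 and -0.09 at P2. Between P2 and E19, 2 were higher at P2, 2 lower and 44 not called, where 6.17% of all tested genes were called. Besides the 5 channel genes, 27 list genes were called at E19 and 25 at P2. Of these, 16 and 14 kept the call whichever pool was left out, and 13 and 10 kept it under every alternative. The genes that kept it under every alternative at E19 were Mip, Trpm3, Trpm7, Clcn4, Ostm1, Clic2, Clic4, Ano10, Lrrc8b, Ttyh3, Stim1, Slc12a2 and Slc12a4. At P2 they were Trpm3, Clcn4, Ostm1, Clic2, Clic4, Ano4, Ano10, Lrrc8b, Slc12a2 and Slc12a4. Mip passed the filter only through E19. The share of all tested genes that kept their calls in this way was not counted, so nothing particular to these lists is read from it.

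Of 12 aquaporins, 9 stayed under 100 units in the mean of every stage, and Aqp1, Aqp4 and Mip were tested. Aqp4, the water channel of astrocyte endfeet and ependyma, had 194 and 233 units at E19, 710 and 404 units at P2, and 798 and 817 in the adult. It was lower at E19 than in the adult by -1.92 on the log2 scale (adjusted p = 0.00374, not called by the mean of its probe sets), and at P2 the difference was -0.59 and not called. Among the glial markers, Gfap of astrocytes had 11.2 and 10.3 units at E19, 90.8 and 95 units at P2, and 175 and 112 in the adult, so that only the adult pools were above background, and Mbp of oligodendrocytes gave 1989 units for adult pool 1 but 656 for adult pool 2. Their part in the Aqp4 difference was not tested. Mip, the water channel of lens fibres, had 605 and 627 units at E19, 103 and 51 units at P2, and 37.2 and 41.7 in the adult. Its level at E19 was at least 6.16-fold that of the adult, taken against 100 units because both adult pools were below it (adjusted p = 0.000673). Mip passed the filter only through E19, the stage where it was high. Its adjusted p-values are therefore not read as support for the difference. P2 minus E19 was -3.09 for Mip (adjusted p = 0.0221), a value that includes a P2 pool at 51 units, below background. It was no longer called without E19 pool 1, E19 pool 2 or P2 pool 2 (-2.58 without the last), with an adjusted p of up to 0.129.

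Of 28 TRP channels, 19 were on the array and 9 tested. Calls against the adult, Trpv4 included, were 5 lower and 1 higher at E19, and 4 lower and 1 higher at P2, where 25.2% and 21.8% of all tested genes were called lower. No test of the family as a whole was made. Trpm3, a cation channel gated by pregnenolone sulfate, had 1510 and 1666 units at E19, 1993 and 1920 units at P2, and 3000 and 3026 in the adult, with log2 differences of -0.93 (adjusted p = 0.00111) and -0.62 (adjusted p = 0.00467). Like Trpv4, its pools ran in the order E19, P2, adult without overlap. Trpm7, a channel for magnesium and calcium fused to a kinase, was lower by -0.67 at E19 (adjusted p = 0.00569) and -0.44 at P2 (adjusted p = 0.0238), and its second probe set gave -0.92 and -0.55. The call for Trpm7 at P2 was lost without P2 pool 1, P2 pool 2 or adult pool 2 (-0.53 to -0.35). Mcoln1, a calcium channel of lysosomes, gave -0.71 and -0.69, and Pkd2, polycystin-2 of the cilium, -0.45 at E19. The calls of Mcoln1 were lost without adult pool 2, without E19 pool 1 at E19 (-0.91 to -0.50 over the pools left out) and without either P2 pool at P2 (-0.79 to -0.58), and that of Pkd2 without either E19 pool (-0.53 to -0.38). The exception was Trpm4, a calcium-activated channel for monovalent cations, with 116 and 103 units at E19 and 110 and 135 at P2, against 71.5 and 70 in the adult, which is at least 1.1-fold and 1.23-fold higher. Its call at E19 was lost without E19 pool 1 or adult pool 2 (adjusted p up to 0.0722), and both calls were lost under quantile normalization. Trpc1, Trpc2 and Trpv5 were not called in any comparison.

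Genes that bind TRPV4 or act beside it in calcium handling were listed too, and 7 of 8 were tested. Calls against the adult were 3 lower and 1 higher at E19, and 2 lower and 1 higher at P2. Over all tested genes 25.2% were called lower and 31.4% higher at E19, and 21.8% and 28.8% at P2. The gene called higher was Itpr3 at E19 (at least 1.6-fold) and Kcnn4 at P2 (0.89 on the log2 scale). Each had an adult pool under 100 units, and both calls were lost under quantile normalization. Os9 was called lower at E19 (-1.06) and at P2 (-0.76, lost without a filter). Stim1, the calcium sensor of the endoplasmic reticulum, had 2257 and 2083 units at E19, 2431 and 2371 units at P2, and 3480 and 3229 in the adult, with log2 differences of -0.63 (adjusted p = 0.00398) and -0.48 (adjusted p = 0.011). The call at P2 ended without P2 pool 2 (adjusted p = 0.0501). Orai1, the pore that Stim1 opens, was lower by -0.55 at E19 (adjusted p = 0.00994, lost without E19 pool 1 at an adjusted p of 0.0593), and at P2 the difference was -0.13. Pacsin3, which binds the amino-terminal end of TRPV4, had 498 to 557 units on all 6 arrays and was not called.

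Of 9 CLC genes, 7 were on the array and 4 tested, and Clcn1, Clcn5 and Clcn7 stayed under 100 units. Unlike Clcn2 and the brightest probe set of Clcn3, both other tested members were lower at the young stages. Clcn4, an endosomal exchanger closely related to Clcn3, had 292 and 262 units at E19, 243 and 254 units at P2, and 720 and 779 in the adult, with log2 differences of -1.44 (adjusted p = 0.000422) and -1.59 (adjusted p = 0.000425) that were kept under every alternative. Clcn6, of late endosomes, gave -0.53 at E19 and -0.38 at P2, with the call at E19 lost without E19 pool 1 (adjusted p = 0.0637) and that at P2 lost in 5 of the 6 fits that left out a pool (up to an adjusted p of 0.119). Ostm1, the beta subunit of ClC-7, had 1606 and 1693 units at E19, 1924 and 2030 units at P2, and 5217 and 4487 in the adult, which is lower by -1.55 and -1.29. The partners Bsnd and Hepacam stayed under 100 units.

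**Figure D4:**
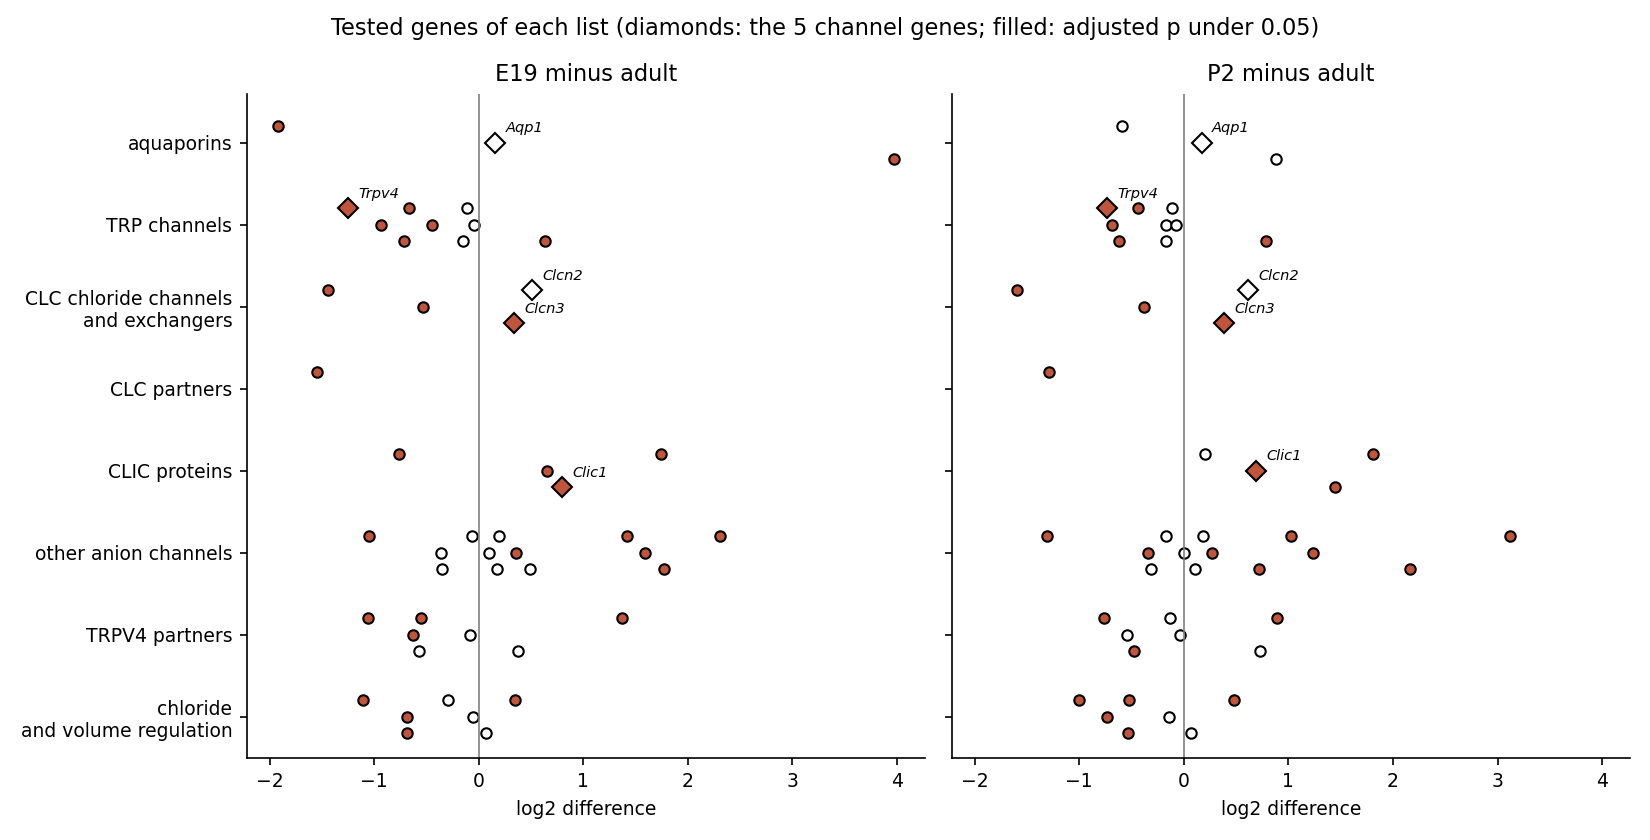
Log2 differences of intensity for E19 minus adult (left) and P2 minus adult (right) for the 48 tested genes of the 8 lists, 1 row per list, with diamonds for the 5 channel genes and filled symbols for an adjusted p under 0.05. Fitted values of genes under 100 units in the adult, such as Mip at 3.97, are no measure of fold. In the TRP row, 5 of 6 filled symbols at E19 lie left of 0, and in the CLIC row, 3 of 4 lie right of it. Over all tested genes, 25.2% were called lower and 31.4% higher at E19.

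Of 6 CLIC genes, 5 were on the array and 4 tested. Clic1 included, 3 were called higher and 1 lower at E19, and 3 higher at P2. Over all tested genes 31.4% were called higher at E19 and 28.8% at P2, and no test of the family was made. Clic4, linked in mouse to the forming of vessel lumens, had 2815 and 2816 units at E19, 2270 and 2348 units at P2, and 833 and 854 in the adult, with log2 differences of 1.74 (adjusted p = 0.00015) and 1.45 (adjusted p = 0.000293). Its second probe set gave 0.90 and 0.85, also called. Clic2 had 271 and 255 units at E19, 565 and 611 units at P2, and 169 and 166 in the adult, so that its highest level was at P2. The log2 difference from the adult was 0.65 at E19 and 1.81 at P2, and P2 exceeded E19 by 1.16 (adjusted p = 0.0157, lost without any 1 of the 4 young pools, with values from 1.10 to 1.22). Clic3 had 105 and 92.2 units at E19, 170 and 214 units at P2, and 178 and 155 in the adult, and was the only CLIC gene called lower at E19 (-0.76, adjusted p = 0.012, lost without E19 pool 2 at an adjusted p of 0.0675). P2 minus E19 was 0.95 for Clic3 (adjusted p = 0.0372), a call lost in 5 of the 6 fits that left out a pool, all but the one without adult pool 1 (0.79 to 1.12). Clic5 stayed under 100 units. Clic1, Clic2 and Clic4 thus shared a lower level in the adult.

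Among 27 other anion channels, 23 were on the array and 13 tested. Of these, 5 were called higher and 1 lower at E19, and 6 higher and 2 lower at P2. Over all tested genes 31.4% were called higher at E19 and 28.8% at P2. The counts include Ano1 at E19 and Ano3 at P2, called higher although every pool compared was under 100 units. Ano1 passed the filter only through P2 and Ano3 only through E19, so these calls are no measure of a change. Cftr, the cyclic AMP-gated chloride channel, was under 100 units on all arrays. Lrrc8b, a subunit of the volume-regulated anion channel, had 1135 and 1076 units at E19, 633 and 729 units at P2, and 388 and 439 in the adult, with 1.42 at E19 (adjusted p = 0.000658) and 0.72 at P2 (adjusted p = 0.00647). P2 minus E19 was -0.70 for Lrrc8b (adjusted p = 0.0382), a call lost without any 1 of the 4 young pools (-0.80 to -0.60). Lrrc8a, the obligatory subunit, had a difference of 0.36 at E19 and 0.27 at P2 by its brighter probe set, whereas its other probe set gave -0.11 and -1.22, so no direction holds for Lrrc8a. Ttyh3 had 1433 and 1535 units at E19, 1312 and 1365 units at P2, and 323 and 276 in the adult, with 2.31 and 2.16 (adjusted p = 0.000171 and 0.000254), the second not called by the mean of its probe sets. Ano10 was lower by -1.05 and -1.31 (adjusted p = 0.00217 and 0.0014). The subunits Lrrc8c and Lrrc8d were not called in any comparison.

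The chloride that these channels pass is set by cotransporters, which were listed together with kinases, and all 7 listed genes on the array were tested. Calls were 1 higher and 3 lower at E19, and 1 higher and 4 lower at P2. Over all tested genes 25.2% were called lower at E19 and 21.8% at P2. Slc12a2, the sodium, potassium and chloride cotransporter NKCC1, had 8019 and 7582 units at E19, 8901 and 8631 units at P2, and 12774 and 12455 in the adult. Its log2 difference was -0.69 at E19 (adjusted p = 0.00208) and -0.53 at P2 (adjusted p = 0.00602), in the direction of Trpv4 and opposite to Clic1. The potassium and chloride cotransporters were lower too, Slc12a4 by -1.11 at E19 (adjusted p = 0.000673, and adjusted p = 0.00118 at P2) and Slc12a7 by -0.69 and -0.73 (adjusted p = 0.00378 at both). The calls of Slc12a7 were lost by the mean of its probe sets. Stk39, the kinase that activates NKCC1, had 13910 to 15230 units on the 6 arrays by its brighter probe set and was not called, while its other probe set was higher by 0.73 at both young stages (adjusted p = 0.00794 and 0.0092). Oxsr1, a related kinase, was not called. The higher call at each young stage was the kinase Wnk2, by its brighter probe set (0.35 at E19, 0.48 at P2). Its other probe set gave -0.56 and -0.86, so no direction holds for Wnk2. Wnk1 was called lower at P2 only (-0.52), a call lost by the mean of its probe sets.

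Each gene was read here by its brightest probe set, and the other probe sets of Aqp1 and Clcn3 gave other stage differences. The genes whose profiles were most like each channel gene were found by the root mean square difference between log2 intensities over the 6 arrays, each gene centred on its own mean. For Aqp1 they were Tbca, Tmem216 and Cct7 at 0.0186, 0.0219 and 0.0273, and 788 tested genes lay within 0.1, as a nearly flat profile was common. For Clcn3 they were Psmb2, Mppe1 and Tab2 at 0.021, 0.0307 and 0.0314, with 504 genes within 0.1. Trpv4 had few such neighbours. Anxa11, A2m and Bdh2 lay at 0.039, 0.0493 and 0.0613, and 15 genes lay within 0.1. Anxa11, for example, had 2252 and 2046 units at E19, 3093 and 2787 units at P2, and 4703 and 5082 in the adult. For Clic1 they were Pip4k2a, Mtrf1l and Fam110a at 0.0427, 0.0503 and 0.0522, with 91 genes within 0.1. For Clcn2 they were Mcm10, Zfp354c and Loxl2 at 0.0495, 0.0801 and 0.0908, with 5 genes within 0.1, and the first of these, like Clcn2, lay close to 100 units.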

How the data were processed

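RNA of 6 pools of lateral ventricle choroid plexus, 2 at each of E19, P2 and adult, was measured on Affymetrix rat genome arrays. The deposited values are linear signal intensity, computed by the authors with the MAS5 algorithm in Affymetrix Expression Console (its version is not given in those sources that were used here) and scaled on each array. Every column of values was used. Of 31099 probe sets, 57 controls were left out. Gene names came from the platform annotation, updated through RefSeq (GRCr8): 20832 probe sets had 1 gene, 436 several and 9831 none, and 68 gene numbers stayed unmatched. Where several single-gene probe sets existed, the brightest over the 6 arrays stood for the gene and the rest served as a check.

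The filter asked for a stage mean of 100 units or more in any stage and left 17808 probe sets for 10334 genes. A limma model (version 3.58.1, R 4.3.3) with a mean for each stage was fitted to log2 intensities, with 3 residual and 2.15 prior degrees of freedom and Benjamini-Hochberg adjustment across the tested probe sets. Replicates are separate pools, so that p-values measure the spread between pools, and with 2 of them the number of arrays limits the precision. Where neither pool of a stage reached 100 units, the fold was taken against 100 units as a bound, and where this held for both stages no fold is given. The text names the 6 channel genes, genes of the family and marker lists, and for each channel gene the 3 genes of most similar profile. These genes and lists were chosen with earlier results of these data known. Alternatives varied the filter, scaling, low values, stages fitted, spread estimate, pairing and probe set, and left out each pool in turn, the remaining pool then being assumed to vary as pools of other stages did. The probe set that Trpv1 and Trpv4 share was read as a check chosen after seeing the data. The fit was also run on simulated data in which all probe sets had the same spread. Real probe sets differ in spread, so that run is no check of the calls reported here. Promoter windows and their motifs come from the RefSeq table of GRCr8, and protein sequences were not used here.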

Additional observations from a re-analysis of the deposited data

Results flagged for a closer look

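Probe sets that did not represent their gene in the comparisons carried a called difference of their own for Aqp1 and Clcn3. The second Aqp1 probe set was higher than in the adult by 0.93 on the log2 scale at E19 and by 1.01 at P2, with both pools of each young stage above both adult pools, while the brighter one was not called. The faintest Clcn3 probe set had a difference of -0.71 between E19 and the adult, with both E19 pools below both adult pools, opposite to the brightest. Whether probe sets of 1 gene differed from each other was not tested.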

How the results depend on the processing

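With 2 pools per stage and 3 residual degrees of freedom, the intervals of Clcn2 were wide, up to 1.28 at P2, and Clcn2 was limited further by its closeness to 100 units. For the brighter Aqp1 probe set they reached 0.38 at most, a size that was called at P2 for the brightest Clcn3 probe set. The calls of Trpv4 (17 alternatives each) and Clic1 (16 each) against the adult were kept in all. Median centring shifted the median log2 difference from the adult by -0.11 at E19 and -0.12 at P2, and quantile normalization by -0.10 at both, and the share of calls that were higher was 55.7% and 55.6% in the reported fit, 46.7% and 44.6% after centring and 48.1% and 47.2% after quantile normalization. Neither scaling turned the direction of a channel gene against the adult.
Aqp1 was called under quantile normalization (0.24 at E19, 0.27 at P2), with an intensity trend and robust prior (0.16, 0.17), by the mean of its probe sets (0.55, 0.59) and by the second one alone (0.93, 1.01), while median centring lowered it to 0.054 at both stages (adjusted p = 0.589 and 0.595). Quantile normalization lowered Clcn2 to 0.20 at E19 and 0.31 at P2, not called. For P2 minus E19, Trpv4 was called at a filter of 200 units (0.53), under quantile normalization (0.54), with values under 100 units set to 100 (0.53), with 16 units added (0.52) and with the trend and robust prior (0.53), so that 1 channel gene was called there in each of these 5 settings in place of 0. Clcn3 lost its call without a filter (0.34 at E19, 0.38 at P2), after median centring at E19 (0.23), and by the mean of its probe sets (-0.0087 and 0.15). Its other probe sets gave 0.15, 0.18 and -0.71 at E19, 0.15, 0.015 and 0.058 at P2, and for P2 minus E19 the third gave -0.17.
When 1 pool was left out, Clcn3 ranged from 0.33 to 0.35 at E19 and 0.34 to 0.42 at P2, Clcn2 from 0.19 to 0.84 at E19 and 0.29 to 0.94 at P2 (the upper values set against the lone adult pool under 100 units) and -0.10 to 0.30 for P2 minus E19, and Aqp1 for P2 minus E19 from -0.0021 to 0.021. The count of all probe sets called ranged from 6479 to 9402 at E19, where it was 9732 with all pools, and from 0 to 1095 for P2 minus E19, where it was 1269. List genes called for P2 minus E19, 4 as reported, ranged from 0 to 4. The same count was 0 without a filter, 7 at a filter of 200 units, 8 under quantile normalization, 9 with low values set to 100, 7 with 16 units added and 13 with the trend and robust prior. All probe sets called at P2 numbered 5626 without a filter, against 8765, and for P2 minus E19 they numbered 0 without a filter, 2287 with low values set to 100 and 2752 with the trend and robust prior. Turned signs among list genes were Ano1 at E19 under quantile normalization (-0.047), and by the mean of all probe sets Lrrc8a at P2 (-0.49) and Wnk2 at E19 (-0.11) and P2 (-0.19). The cause was not tested in any case.
Pool numbers do not pair the samples, since deviations of same-numbered pools correlated at -0.0571, -0.0406 and 0.00694. With the replicate block, P2 minus E19 gave 1 list gene and 121 probe sets, and no call of a channel gene changed (Trpv4 -1.25 at E19).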

Other observations

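The anoctamin family holds ion channels and lipid scramblases. Of 3 of its genes, Ano1, the calcium-activated chloride channel of many secretory epithelia, was close to background, with 41.1 and 37.7 units at E19, 134 and 75.6 units at P2, and 15.4 and 8.65 in the adult. It passed the filter only through P2. There it was called higher than in the adult (adjusted p = 0.00258, at least 1.05-fold) but not once values under 100 units were set to 100. Ano1 was also called higher at E19 (adjusted p = 0.013), where every pool compared was under 100 units. Ano4 had 175 and 206 units at E19, 255 and 300 units at P2, and 118 and 154 in the adult, with a log2 difference from the adult of 0.49 at E19, not called, and 1.03 at P2 (adjusted p = 0.0076). Ano6, a lipid scramblase and ion channel, had 798 to 883 units in the young pools, against 1145 and 963 in the adult, and was not called in any comparison.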
